A study of Mus musculus with 26 samples.

Results

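Collagen and laminin chains are the structural proteins of extracellular matrix. The genes described here were taken from the rows of the deposited expression table whose symbol names a collagen alpha chain or a laminin alpha, beta or gamma chain, except *Col4a1* and *Lama1*, which were left out of the selection and are given only as partners. They are 52 of 24409 genes, 43 of them collagens and 9 of them laminins, and the rule used no measured value. Expression was measured as FPKM, fragments scaled for transcript length and library size, in total RNA depleted of ribosomal RNA and sequenced with paired reads of 150 bp. The samples were 3 wild-type (WT) and 2 ZFP57 knockout (KO) libraries of male ES cells with C57BL/6J strain background. ES cells are pluripotent cells grown from the inner cell mass of early embryos. All lines came from morulae grown in culture to blastocysts, and were kept in N2B27 medium with LIF and 2i, inhibitors of Erk and Gsk3 signalling, for no more than 15 passages, matched between genotypes. The KO was zygotic, so the oocytes could still supply ZFP57, and a targeted disruption removed the exons for the KRAB domain and the zinc fingers. ZFP57 is a KRAB zinc finger protein that binds a methylated hexanucleotide at imprints and transposable elements. The labels do not say whether each library came from a separate line, so p-values measure the spread between these libraries.

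*Zfp57* itself had 75.94, 72.34 and 70.55 FPKM in WT and 19 and 21.62 FPKM in KO. The step between FPKM values of short genes placed the depth at about 50900000 to 58900000 fragments a library. Markers of pluripotent ES cells were high in both genotypes, with 8 of 8 measured and a summed level of 805 to 857 FPKM in WT and 886 to 959 FPKM in KO, and 4 of them were higher in KO, beside 18.8% of all tested genes, *Klf4*, *Tfcp2l1*, *Esrrb* and *Pou5f1* with log2 fold changes of 0.74, 0.60, 0.42 and 0.27. The call of *Pou5f1* was lost with the replicate number as a block (limma, adjusted p = 0.070). *Nanog*, on chromosome 6, was not called (log2 fold change of -0.11), but both KO values lay below WT, and with the median of that chromosome subtracted it was called lower, at -0.28 (limma, adjusted p = 0.0050). Markers of primitive and parietal endoderm, cells that secrete much basement membrane, summed to 0.79 to 0.95 FPKM in WT and 1.14 to 1.48 FPKM in KO. Of those 8 genes *Sox7* rose, from 0.09, 0.15 and 0.11 FPKM to 0.90 and 0.48 FPKM, while *Gata6* and *Sox17* stayed too low to be tested. The other 3 tested, *Gata4*, *Dab2* and *Pdgfra*, were not called, with log2 fold changes of -0.48, -0.22 and -0.11. Without *Sox7* the sum was 0.68 to 0.86 FPKM in WT and 0.58 to 0.66 FPKM in KO, the other way round. *Foxa2*, too low to be tested, had 0.02, 0.03 and 0.02 FPKM in WT and 0.05 FPKM in both KO libraries. Fibroblast markers summed to 9.67 to 12.8 FPKM in WT and 11.4 to 13.4 FPKM in KO, nearly all of it *Fbln1*, and *Dcn*, *Lum* and *Fap* were at 0 throughout. Trophoblast and mesoderm markers summed to 0.62 to 1.09 FPKM in WT and 1.27 to 1.62 FPKM in KO. Of those 6 genes 4 were tested, and *T* alone was called. It was higher in KO, with 0.29, 0.51 and 0.30 FPKM in WT and 1.02 and 0.67 FPKM in KO. *Cdx2*, *Gata3* and *Mixl1* were not called, with log2 fold changes of 0.73, 0.59 and -0.02. *Elf5* and *Mesp1* were too low to be tested and at 0 in KO, with *Elf5* at 0.05, 0.06 and 0.01 FPKM in WT. The part of these cell types in the results on matrix genes was not tested. Genes of chromosome 11 had a median log2 fold change of -0.47, and those of chromosome 6 of 0.17, while the medians of the other chromosomes lay between -0.03 and 0.05.

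Collagens are trimers whose chains repeat triplets that each begin with a glycine, which lets them wind into a triple helix. Fibrillar collagens build fibres, FACIT collagens sit on the surface of such fibres, collagen IV forms the network of basement membranes, and the transmembrane and multiplexin types carry shorter helical stretches. Laminins are trimers of an alpha, a beta and a gamma chain, and they found the sheet of the basement membrane. Trimers of *Lama1* or *Lama5* chains with *Lamb1* and *Lamc1* chains are the forms best known from the early embryo. Trimers with *Lama5* support self-renewal of pluripotent cells in culture. *Lama3* and *Lamb3* chains are best known from basement membranes of epithelia.

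The repeat is visible in the exons of *Col9a2*, which was called lower in KO. It encodes a chain of collagen IX, a FACIT collagen best known from cartilage, and spans chr4:121039566-121055325 on GRCm38 (mm10), plus strand, with 32 exons. Of its internal coding exons 14 were 54 bp long with a glycine codon at the start of each triplet of codons, 6 in each. These 4 are shown, 5′ to 3′ from the reference genome, with the first 2 bases of each glycine codon in capitals, because they show the unit from which the family is built.
Coding exon 5, chr4:121043696-121043749: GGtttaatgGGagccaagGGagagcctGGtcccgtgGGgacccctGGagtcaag
Coding exon 8, chr4:121044275-121044328: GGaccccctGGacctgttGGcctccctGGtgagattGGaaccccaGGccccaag
Coding exon 13, chr4:121045484-121045537: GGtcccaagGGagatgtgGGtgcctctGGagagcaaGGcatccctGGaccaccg
Coding exon 23, chr4:121052227-121052280: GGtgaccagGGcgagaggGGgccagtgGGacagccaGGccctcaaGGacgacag

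Across the 43 collagens, 453 of 1847 internal coding exons (24.5%) had this length, and 1181 (63.9%) had a length that 9 bp, the span of a triplet of codons, divides. In the 9 laminins no internal coding exon of 382 had this length, and 59 (15.4%) had such a length. The genes are large in both families, with a median of 48 exons in collagens and 33 in laminins.

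RefSeq promoters of 300 bp, from 250 bp before to 50 bp after a transcript start, were found for 39 of the 52 genes. That start was the outer end of the gene span for 13 genes and lay up to 7641 bp from it for 26, among them *Lamb1*, where it lies 147 bp into the span. The promoters of 3 genes that changed and of *Col4a2* are given on the strand of the gene, with CG dinucleotides in capitals, since ZFP57 binds a hexanucleotide that holds a methylated CG. *Col9a2* and *Lamb1* fell, *Col18a1* rose, and *Col4a2* shares its promoter region with *Col4a1*, which runs the other way.
*Col9a2*, chr4:121039316-121039615, plus strand: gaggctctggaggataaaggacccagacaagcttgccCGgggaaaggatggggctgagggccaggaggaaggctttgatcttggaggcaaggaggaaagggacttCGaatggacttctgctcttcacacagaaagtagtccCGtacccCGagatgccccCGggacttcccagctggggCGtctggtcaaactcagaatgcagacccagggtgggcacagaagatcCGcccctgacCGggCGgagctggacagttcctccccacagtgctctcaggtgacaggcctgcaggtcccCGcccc
*Lamb1*, chr12:31265043-31265342, plus strand: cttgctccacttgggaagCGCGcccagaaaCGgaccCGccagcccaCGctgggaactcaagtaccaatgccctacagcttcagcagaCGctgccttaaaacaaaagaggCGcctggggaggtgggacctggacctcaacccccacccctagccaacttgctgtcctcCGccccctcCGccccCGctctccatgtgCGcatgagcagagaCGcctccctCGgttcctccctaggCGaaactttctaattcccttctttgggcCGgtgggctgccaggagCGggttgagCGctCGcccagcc
*Col18a1*, chr10:77166481-77166780, minus strand: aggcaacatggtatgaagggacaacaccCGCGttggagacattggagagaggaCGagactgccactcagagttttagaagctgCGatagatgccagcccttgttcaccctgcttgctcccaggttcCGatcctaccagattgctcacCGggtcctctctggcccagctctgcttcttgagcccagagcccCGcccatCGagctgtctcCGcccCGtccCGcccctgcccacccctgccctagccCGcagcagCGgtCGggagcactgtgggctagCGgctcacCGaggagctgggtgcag
*Col4a2*, chr8:11312555-11312854, plus strand: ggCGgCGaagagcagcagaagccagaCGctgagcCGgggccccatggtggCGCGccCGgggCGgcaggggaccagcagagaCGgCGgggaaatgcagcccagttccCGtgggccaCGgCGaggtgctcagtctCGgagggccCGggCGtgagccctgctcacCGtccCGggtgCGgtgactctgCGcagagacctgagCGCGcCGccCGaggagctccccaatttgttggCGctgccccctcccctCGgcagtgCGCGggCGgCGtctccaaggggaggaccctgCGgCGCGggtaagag

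These promoters held 10, 18, 16 and 33 CG dinucleotides, with ratios of observed to expected CG of 0.352, 0.615, 0.538 and 0.818. The hexanucleotide TGCCGC, read on both strands, was found in 2 of the 39 promoters (5.13%), those of *Col4a2* and *Col19a1*. Of all 27025 promoters of this length 11.6% held it, and of the 16429 promoters of protein-coding genes measured here 14.4%. The median ratio of observed to expected CG was 0.442 over the 39 promoters, 0.389 over all promoters and 0.607 over the protein-coding ones.

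ZFP57 peaks are regions called in at least 2 WT libraries of ZFP57 ChIP-seq. Few of these genes had a peak nearby, as was so for all genes, and the difference between such small counts and the shares of all genes was not tested. No collagen or laminin gene held a peak within its span, against 1.63% of the 24289 genes that could be placed. *Col19a1*, a FACIT chain listed at 0 in all 5 libraries, had a peak 7311 bp from its start, at chr1:24595233-24595688, and was the 1 gene of 52 (1.92%) with a peak within 20 kb, against 4.25% of all genes. Within 50 kb *Lama4* was added, with a peak at chr10:39140881-39141203, 30693 bp past its end, which makes 3.85% against 8.11% of all genes. For the 9 genes that changed, the nearest peak lay between 64367 bp (*Col5a3*) and 2420189 bp (*Lamb1*) away.

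The levels of the 52 genes spread over several orders of magnitude. A mean of at least 0.1 FPKM over the libraries was reached by 21, 14 collagens and 7 laminins, and only these were tested. A mean of 1 FPKM or more was reached by 7, namely *Lamc1*, *Lama5*, *Col18a1*, *Lama3*, *Lamb1*, *Lamb2* and *Col9a2* in falling order. Laminins thus held most of the signal, with 79.2, 72.3 and 71.9 FPKM in sum in WT and 84.0 and 85.9 FPKM in KO. The 43 collagens summed to 16.1, 13.9 and 14.7 FPKM in WT and 13.4 and 15.0 FPKM in KO. The sums of the collagens thus overlapped between genotypes and those of the laminins did not. Most of the laminin sum was *Lamc1*, with 49.79, 44.89 and 45.37 FPKM in WT and 60.21 and 62.56 FPKM in KO. Of the other laminins *Lama3* and *Lamb1* fell and *Lama5* and *Lamb2* rose, so that sum does not stand for the family.

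**Figure D1:**
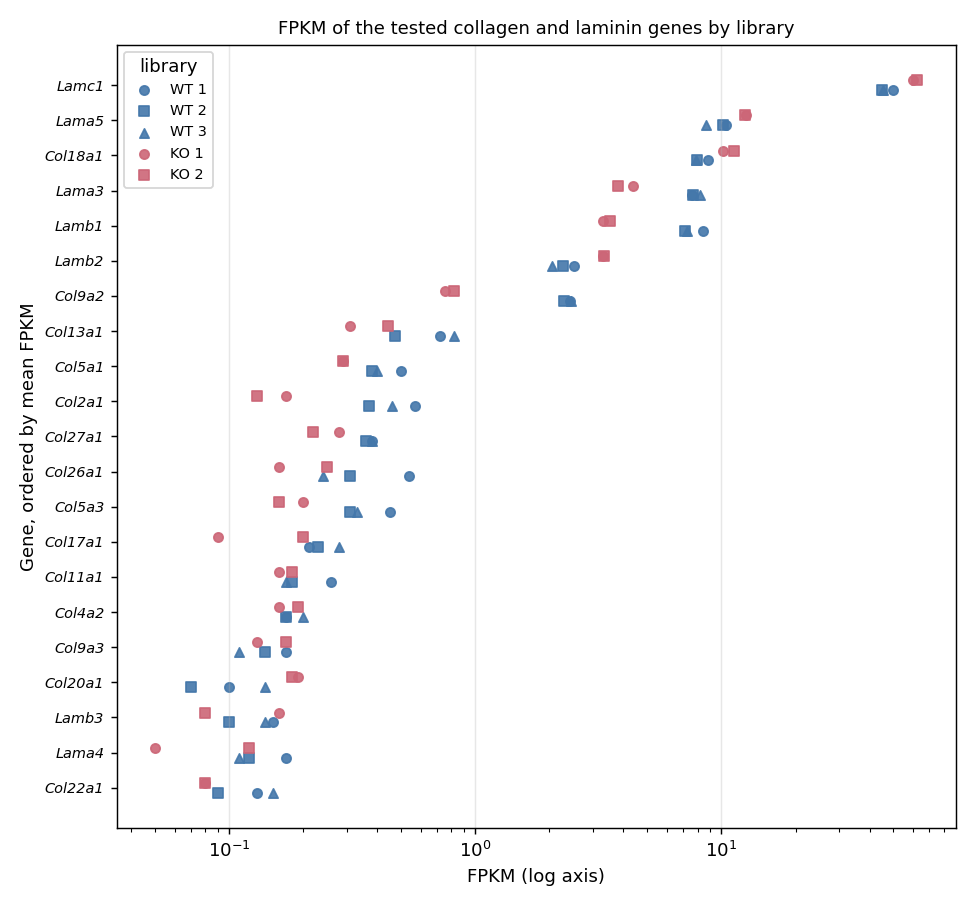
FPKM of the 21 tested genes on a log axis, 1 row a gene ordered by the mean, with 3 WT libraries in blue and 2 KO libraries in red and a symbol for each library. The 7 genes from *Lamc1* to *Col9a2* sit above 1 FPKM on average with the genotypes apart, and most of the collagens crowd between 0.1 and 1 FPKM.

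Of the 21 tested genes 9 were called, with an adjusted p under 0.05 in limma on log2(FPKM + 0.1) and Benjamini-Hochberg adjustment over 14612 genes. *Lamc1*, *Lama5*, *Lamb2* and *Col18a1* were higher in KO and *Lama3*, *Lamb1*, *Col9a2*, *Col2a1* and *Col5a3* were lower. This is a share of 42.9%, close to the 41.1% called among all tested genes, where 18.8% were higher and 22.3% lower. Laminins were called in 5 of 7, with a median log2 fold change of -0.08, and collagens in 4 of 14, with a median of -0.43, beside a median of -0.01 over all tested genes. All 7 genes at or above 1 FPKM on average were called, where 44.7% of all genes at that level were. Of the 14 below 1 FPKM 2 were called, both of them lower, beside 22.5% called lower and 8.61% called higher among all tested genes below 1 FPKM. Exons of the called genes *Col2a1*, *Lama3* and *Lama5* overlap genes annotated on the other strand. Reads of such pairs cannot be told apart where the counting did not use the strand. In bulk RNA, fewer cells that express a gene and less RNA in each cell cannot be told apart.

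**Figure D2:**
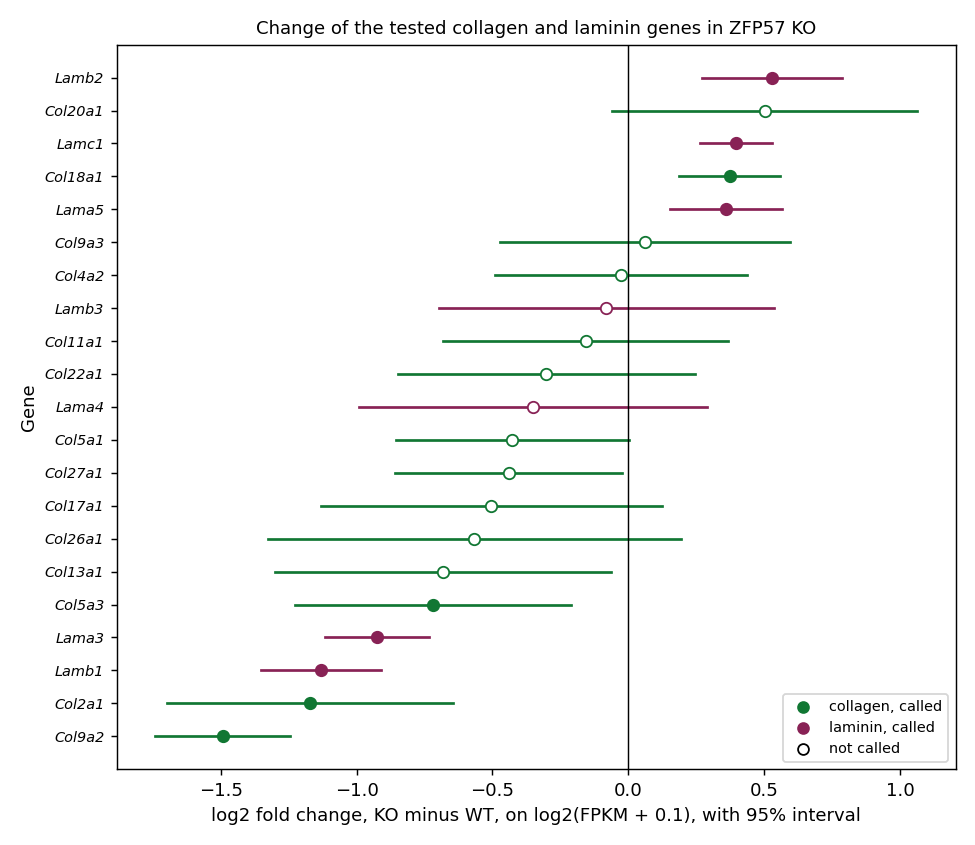
Log2 fold change, KO minus WT, of the 21 tested genes on log2(FPKM + 0.1), with the 95% interval of the limma fit as a bar. Filled points are called. *Lamb2* is highest at 0.53 and *Col9a2* lowest at -1.49, and most of the open points are collagens whose estimate lies below 0.

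The laminin alpha chains, which carry the ends that receptors bind, moved in different directions. *Lama5*, the alpha chain on which pluripotent cells self-renew, had 10.47, 10.15 and 8.69 FPKM in WT and 12.54 and 12.51 FPKM in KO. Both KO values were above all WT values, and the log2 fold change was 0.36 ± 0.08 (SE; limma, adjusted p = 0.018). It was not called without KO replicate 1 (adjusted p = 0.075) or KO replicate 2 (adjusted p = 0.080). *Lama3*, an alpha chain of epithelial basement membranes, had 7.60, 7.67 and 8.21 FPKM in WT and 4.37 and 3.80 FPKM in KO. The genotypes were well apart, with a log2 fold change of -0.92 ± 0.08 (limma, adjusted p = 0.00065). *Lama4*, an alpha chain of vessel walls, had 0.17, 0.12 and 0.11 FPKM in WT and 0.05 and 0.12 FPKM in KO, with a log2 fold change of -0.35 (95% interval from -0.99 to 0.29). *Lama2*, the alpha chain of muscle, did not exceed 0.02 FPKM. *Lama5* spans chr2:180176373-180225904 on the minus strand and *Lama3* chr18:12333417-12583013 on the plus strand.

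*Lama1*, the partner left out of the selection and an alpha chain of the earliest embryonic basement membranes, had 1.21, 1.05 and 1.03 FPKM in WT and 5.00 and 6.94 FPKM in KO. Its log2 fold change was 2.33 ± 0.16 (limma, adjusted p = 0.00041). With it counted, the alpha chains summed to 18.1 to 19.5 FPKM in WT and to 21.97 and 23.38 FPKM in KO. The share of *Lama1* in that sum was 6.22, 5.53 and 5.70% in WT and 22.8 and 29.7% in KO. The share of *Lama3* was 39.1, 40.4 and 45.5% in WT and 19.9 and 16.3% in KO, while that of *Lama5* was 53.8, 53.4 and 48.1% in WT and 57.1 and 53.5% in KO and overlapped. The ratio of *Lama5* to *Lama3* FPKM was 1.38, 1.32 and 1.06 in WT and 2.87 and 3.29 in KO.

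Of the beta chains, *Lamb1* and *Lamb2* had nearly equal levels in KO. *Lamb1*, the beta chain of both embryonic laminins, had 8.45, 7.10 and 7.27 FPKM in WT and 3.30 and 3.52 FPKM in KO, a log2 fold change of -1.13 ± 0.09 (limma, adjusted p = 0.00057). *Lamb2*, a beta chain of muscle, nerve and kidney basement membranes, had 2.52, 2.27 and 2.04 FPKM in WT and 3.30 and 3.34 FPKM in KO. Neither gene overlapped between genotypes, and *Lamb2* rose by a log2 fold change of 0.53 ± 0.11 (limma, adjusted p = 0.0099), a call that was lost without KO replicate 2 (adjusted p = 0.054). *Lamb1* thus exceeded *Lamb2* by ratios of 3.35, 3.13 and 3.56 in WT, and in KO the ratios were 1.00 and 1.05. *Lamb3*, a beta chain of epithelial basement membranes, had 0.15, 0.10 and 0.14 FPKM in WT and 0.16 and 0.08 FPKM in KO, with a 95% interval of the log2 fold change from -0.70 to 0.53. The sum of the beta chains was 11.1, 9.47 and 9.45 FPKM in WT and 6.76 and 6.94 FPKM in KO. *Lamb1* spans chr12:31265146-31329644 on the plus strand, and *Lamb2* spans chr9:108479847-108490530 on the plus strand.

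Of the gamma chains *Lamc1*, the partner in most laminins and the highest of all 52 genes, had 49.79, 44.89 and 45.37 FPKM in WT and 60.21 and 62.56 FPKM in KO. Its log2 fold change was 0.40 ± 0.06 (limma, adjusted p = 0.0027). The KO values lay above every WT value. *Lamc3* did not exceed 0.03 FPKM. *Lamc1* spans chr1:153218922-153332786 on the minus strand, and *Shcbp1l* on one side of it was called in the other direction, with a log2 fold change of -1.21.

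The chains of the trimer of *Lama5*, *Lamb1* and *Lamc1* did not move together, with *Lama5* and *Lamc1* higher and *Lamb1* lower. The beta chain *Lamb2* was higher, as *Lama5* and *Lamc1* were. *Lamc1* exceeded the summed FPKM of the beta chains by ratios of 4.48, 4.74 and 4.80 in WT and of 8.91 and 9.01 in KO. It exceeded the sum of the alpha chains, *Lama1* included, by 2.56, 2.36 and 2.51 in WT and by 2.74 and 2.68 in KO. These ratios are between transcripts, and protein was not analysed here.

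**Figure D3:**
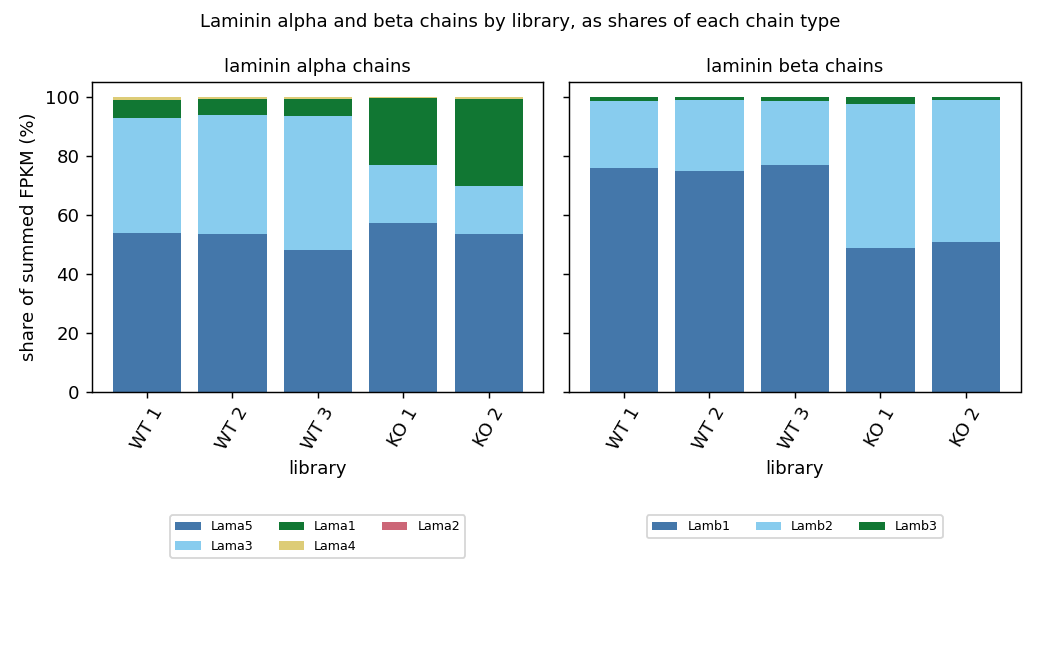
Share in percent of each laminin chain in the summed FPKM of its chain type, alpha on the left and beta on the right, with 1 stacked bar for each of the 3 WT and 2 KO libraries. *Lama1* is included among the alpha chains. In KO the share of *Lama1* is 22.8 and 29.7%, and *Lamb2* reaches 48.8 and 48.1% of the beta chains against 21.59 to 23.97% in WT.

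Among collagens *Col18a1* stood far above the rest. It encodes a multiplexin of basement membranes whose end is released as endostatin, and had 8.86, 7.97 and 7.85 FPKM in WT and 10.13 and 11.22 FPKM in KO. The KO libraries were both above the WT libraries, with a log2 fold change of 0.37 ± 0.08 (limma, adjusted p = 0.011), not called without KO replicate 2 (adjusted p = 0.064). It was the 1 collagen called higher. *Col18a1* made up 55.0, 57.2 and 53.4% of the collagen sum in WT and 75.4 and 75.0% in KO. Without it the other 42 collagens summed to 7.24, 5.96 and 6.85 FPKM in WT and 3.31 and 3.74 FPKM in KO, so that their sum was lower in both KO libraries than in any WT library. The other multiplexin, *Col15a1*, did not exceed 0.03 FPKM. *Col18a1* spans chr10:77052178-77166530 on the minus strand.

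*Col9a2* had 2.43, 2.29 and 2.45 FPKM in WT and 0.75 and 0.82 FPKM in KO. The libraries of each genotype lay close together, and the log2 fold change was -1.49 ± 0.10 (limma, adjusted p = 0.00043). Its partner chains in collagen IX did not share this level. *Col9a3* had 0.17, 0.14 and 0.11 FPKM in WT and 0.13 and 0.17 FPKM in KO (95% interval of the log2 fold change from -0.47 to 0.59), and its exons reach into *Tcfl5* on the other strand. *Col9a1* was not tested, with 0.02, 0.02 and 0.08 FPKM in WT and 0.00 and 0.01 FPKM in KO. *Col9a2* FPKM thus exceeded *Col9a3* FPKM by ratios of 14.3, 16.4 and 22.3 in WT and of 5.77 and 4.82 in KO. Both genes next to *Col9a2* were called lower too, by less, *Smap2* with a log2 fold change of -0.32 and *Zmpste24* with -0.32.

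Of the 11 fibrillar collagens 5 were tested and 2 were called, both of them lower, beside 22.3% called lower among all tested genes. *Col2a1*, the main fibrillar chain of cartilage, had 0.57, 0.37 and 0.46 FPKM in WT and 0.17 and 0.13 FPKM in KO. These values rest on about 112 to 161 fragments in WT and 37 to 46 in KO, and the log2 fold change was -1.17 ± 0.22 (limma, adjusted p = 0.0076). *Col5a3*, a chain of collagen V, had 0.45, 0.31 and 0.33 FPKM in WT and 0.20 and 0.16 FPKM in KO, with a log2 fold change of -0.72 ± 0.21 (limma, adjusted p = 0.036). Its genotypes did not overlap, but the call was lost without any 1 of the 5 libraries, with adjusted p from 0.053 to 0.14. *Col5a1*, its partner chain, had 0.50, 0.38 and 0.40 FPKM in WT and 0.29 in both KO libraries (log2 fold change of -0.43, limma, adjusted p = 0.10). *Col27a1*, a fibrillar chain of cartilage, had 0.38, 0.36 and 0.38 FPKM in WT and 0.28 and 0.22 FPKM in KO (log2 fold change of -0.44, limma, adjusted p = 0.087). *Col11a1* overlapped between genotypes, with 0.17 to 0.26 FPKM in WT and 0.16 and 0.18 FPKM in KO. The chains of the most abundant fibres of connective tissue stayed near the floor, *Col1a1* at up to 0.10 FPKM, *Col1a2* at up to 0.01 FPKM and *Col3a1* at 0. *Col2a1* spans chr15:97975602-98004724 and *Col5a3* chr9:20770050-20815117, both of them on the minus strand.

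Among collagen IV chains, those of the basement membrane network, *Col4a2* was the 1 tested member. It had 0.17, 0.17 and 0.20 FPKM in WT and 0.16 and 0.19 FPKM in KO, with a 95% interval of the log2 fold change from -0.49 to 0.44. *Col4a1*, left out of the selection, had 0.50, 0.38 and 0.41 FPKM in WT and 0.27 and 0.23 FPKM in KO. Its log2 fold change was -0.59 ± 0.18 (limma, adjusted p = 0.043), a call lost without any 1 of the 5 libraries (adjusted p from 0.061 to 0.150). The ratio of *Col4a2* to *Col4a1* FPKM was 0.34, 0.45 and 0.49 in WT and 0.59 and 0.83 in KO. Their proteins assemble together in the network of collagen IV. Both genes overlap at their starts on opposite strands, and the table does not say whether the counting used the strand. *Col4a3* and *Col4a4*, which pair in kidney and lung, were at 0 in all libraries, and *Col4a5* and *Col4a6* did not exceed 0.03 FPKM.

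The remaining tested collagens were not called. *Col13a1*, a transmembrane collagen of junctions, had 0.72, 0.47 and 0.82 FPKM in WT and 0.31 and 0.44 FPKM in KO (log2 fold change of -0.68, limma, adjusted p = 0.076). *Col17a1*, the transmembrane collagen of hemidesmosomes, had 0.21, 0.23 and 0.28 FPKM in WT and 0.09 and 0.20 FPKM in KO, where the KO libraries differed more from each other than the WT libraries did. *Col26a1* overlapped, with 0.24 to 0.54 FPKM in WT and 0.16 and 0.25 FPKM in KO. *Col20a1*, a FACIT collagen, was the 1 tested collagen below 1 FPKM with both KO values above WT, at 0.10, 0.07 and 0.14 FPKM in WT and 0.19 and 0.18 FPKM in KO (log2 fold change of 0.50, limma, adjusted p = 0.13). *Col22a1*, a FACIT collagen of tissue junctions, had 0.09 to 0.15 FPKM in WT and 0.08 FPKM in both KO libraries.

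The 12 tested collagens below 1 FPKM had estimates below 0 in 10, with a median log2 fold change of -0.43. Over all tested genes below 1 FPKM the median was -0.19 and 61.7% of estimates lay below 0, so low genes as a whole leaned the same way. The sum of these 12 was 4.20, 3.08 and 3.68 FPKM in WT and 2.22 and 2.49 FPKM in KO. WT replicate 1 was the highest WT library for 13 of the 21 tested genes (61.9%) and WT replicate 2 for none, with 1 gene tied at 2 decimals, whereas WT replicate 1 alone was the highest for 32% of all tested genes. For the collagens below 1 FPKM it was the highest in 6 of 12, with 1 tied, against 36.8% of all tested genes at that level. Without WT replicate 1, 8 of the 9 genes were called, *Col5a3* being the exception.

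**Figure D4:**
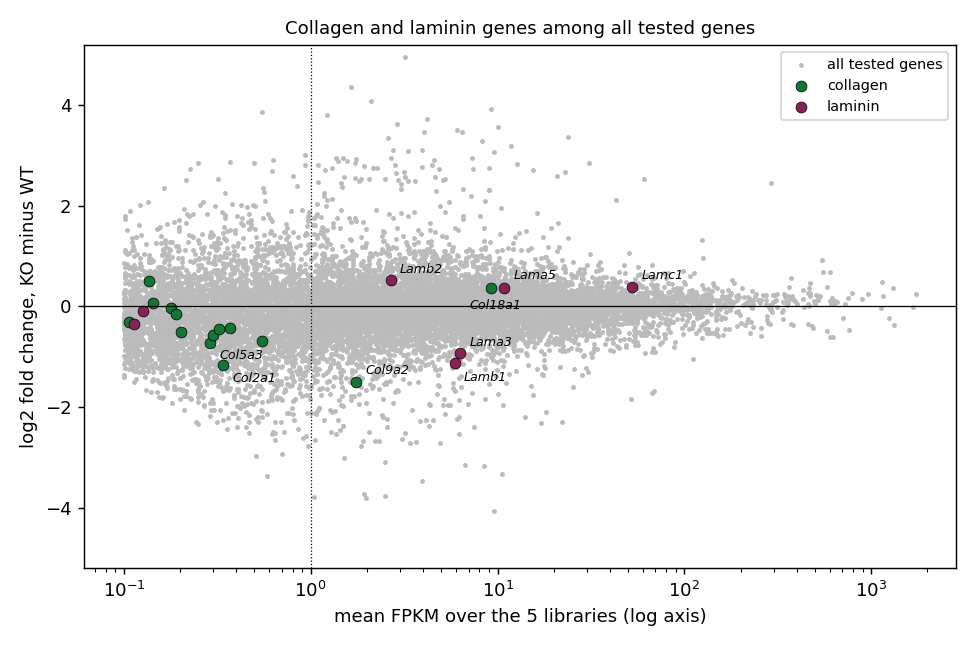
Log2 fold change, KO minus WT, against the mean FPKM of the 5 libraries (log axis) for all 14612 tested genes in grey, with collagens in green and laminins in purple. The dotted line marks 1 FPKM, to the right of which all 7 named genes are called, 4 above and 3 below 0.

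Another 31 genes, 29 collagens and 2 laminins, had a mean under 0.1 FPKM and were not tested. Of these 5 were at 0 in all libraries, *Col3a1*, *Col4a3*, *Col4a4*, *Col19a1* and *Col28a1*, and at this depth a transcript of low level may give no fragment. In 8 of the other 26 both KO values were below all WT values and in 1 they were above, while among all untested genes with any signal 14.3% had KO below and 7.04% had KO above. The 8 were *Col4a6*, *Col6a2*, *Col6a4*, *Col6a5*, *Col6a6*, *Col9a1*, *Col11a2* and *Col23a1*, and 4 of them are chains of collagen VI, which forms beaded filaments and has 6 chains here. The other 2, *Col6a1* and *Col6a3*, overlapped between genotypes, and *Col6a2* and *Col6a6* rest on about 3 to 8 fragments in each WT library and 0 in KO. *Col4a6* rests on about 7, 4 and 3 fragments in WT and 0 in KO, and *Col9a1* on about 5, 5 and 17 in WT and 0 and 2 in KO. *Col6a4* had 0.09, 0.06 and 0.07 FPKM in WT and 0.01 and 0.02 FPKM in KO, about 26 to 37 fragments against 4 and 8. *Col6a5*, its neighbour on chromosome 9, had 0.07, 0.05 and 0.05 FPKM in WT and 0.03 and 0.02 FPKM in KO. *Col14a1*, a FACIT collagen of tendon and skin, was the 1 gene above, with 0.03, 0.04 and 0.03 FPKM in WT and 0.07 and 0.06 FPKM in KO. *Col1a1* and *Col23a1* are the only members on chromosome 11 and neither was tested, so the shift of that chromosome touched no called collagen or laminin, and with each chromosome's median subtracted the same 9 genes were called.

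The genes next to the 9 called ones were read as a description of the surroundings. Of 17 neighbours, the nearest tested protein-coding genes on either side, 8 were called in the direction of the collagen or laminin gene, 3 in the other direction and 6 were not called, where 18.8% of all tested genes were called higher and 22.3% lower. *Ttc39c*, 90 bp from the end of *Lama3*, was lower too (log2 fold change of -0.61), whereas *Adrm1*, 90 bp from *Lama5*, had a log2 fold change of 0.02 and was not called. Neither gene beside *Lamb2* was called.

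Enzymes and chaperones that mature collagen were taken from a list of 24 genes, of which 14 were tested, 4 were higher and 3 lower, beside 41.1% called among all tested genes. *P4ha1*, the catalytic subunit of the prolyl hydroxylase that stabilises the triple helix, fell from 4.22 ± 0.42 FPKM (SD, n = 3) to 1.5 ± 0.16 FPKM (n = 2), a log2 fold change of -1.43 (limma, adjusted p = 0.00057). *P4hb*, the other subunit of that enzyme and a protein disulfide isomerase, fell by 0.53 on the log2 scale, but it lies on chromosome 11, and with the median of that chromosome subtracted the log2 fold change was -0.06 (limma, adjusted p = 0.58). *P4ha2*, also on chromosome 11, was called lower but not after that subtraction (limma, adjusted p = 0.23). *Serpinh1*, the collagen chaperone HSP47, rose from 15.3 ± 0.60 FPKM to 26 ± 0.54 FPKM (log2 fold change of 0.76). *Pcolce*, an enhancer of procollagen cleavage, rose by a log2 fold change of 0.58, and *Crtap* and *Colgalt1* by 0.45 and 0.26. The list's median was 0.00, and the lysyl oxidase genes *Lox* and *Loxl1* to *Loxl4*, which cross-link collagen, were too low to be tested.

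Receptors came from a list of 13 genes, of which 10 were tested, 3 were higher and 4 lower, against the same 41.1% over all genes. *Ddr2*, a receptor kinase for fibrillar collagen, fell from 2.16 ± 0.06 FPKM (SD, n = 3) to 0.47 ± 0.04 FPKM (n = 2), a log2 fold change of -1.99 (limma, adjusted p = 0.00033). *Ddr1*, the related kinase, fell by 0.42 on the log2 scale and *Dag1*, dystroglycan, by 0.23. *Bcam*, a receptor for the laminin alpha 5 chain, rose by a log2 fold change of 0.79, and *Itga6* and *Itgb1*, which pair as a laminin integrin, rose by 0.63 and 0.43. *Itga3*, another laminin integrin, was called lower at -0.50 (limma, adjusted p = 0.048), lies on chromosome 11 and was at -0.03 with that chromosome's median subtracted. Its call was also lost without any 1 library but WT replicate 2, with adjusted p from 0.063 to 0.217.

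Other basement membrane genes came from a list of 12, of which 9 were tested, 4 were higher and 2 lower, again beside 41.1% over all genes. *Hspg2*, the proteoglycan perlecan, rose from 5.65 ± 0.73 FPKM (SD, n = 3) to 12.9 ± 0.88 FPKM (n = 2), a log2 fold change of 1.18 (limma, adjusted p = 0.00079). *Agrn*, the proteoglycan agrin, rose by 0.59 and *Fn1*, fibronectin, by 0.32 on that scale. *Frem2*, of the Fraser complex, rose by 0.70 (limma, adjusted p = 0.032), but not without WT replicate 1 or 3 or KO replicate 1, with adjusted p from 0.073 to 0.160. *Nid1*, nidogen, which links laminin to collagen IV, fell by 0.34, and *Smoc1*, a calcium-binding matrix protein, fell by 0.57 on the log2 scale. *Nid2* was not called, with a log2 fold change of 0.03. *Sparc*, a collagen-binding matrix protein on chromosome 11, was not called at -0.14, but with the median of that chromosome subtracted it was called higher, at 0.33 (limma, adjusted p = 0.0057).

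**Figure D5:**
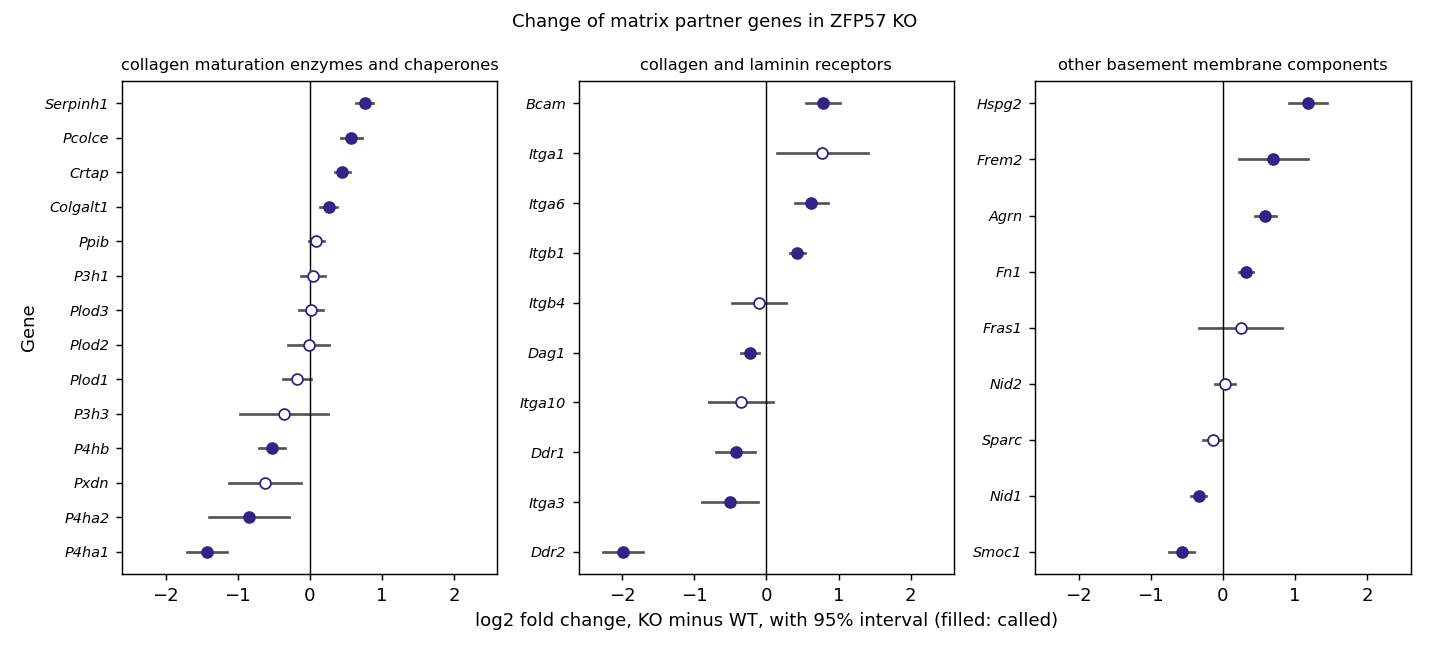
Log2 fold change, KO minus WT, of the tested genes of 3 lists, collagen maturation (left), receptors (middle) and other basement membrane genes (right), with 95% intervals and filled points for called genes. *P4ha1* and *Ddr2* lie lowest at -1.43 and -1.99, and *Hspg2* highest at 1.18.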

How the data were processed

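The authors deposited gene expression as FPKM, rounded to 2 decimals, after mapping to mm10. Tools named in the submitters' processing notes, without roles, are STAR 2.5.2, BWA 0.6.2, Trim Galore 0.2.7, FastQC 0.11.5, MACS2 2.1.0 and Picard. Annotation and strand of counting are not given in the sources used here. The deposited ZFP57 peaks are positions without a score.

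Genes that reached 0.1 FPKM on average entered the test, limma 3.58.1 (eBayes with trend, R 4.3.3) applied to log2(FPKM + 0.1), two-sided, with a pooled spread, since with 3 against 2 libraries an exact permutation test cannot go below 0.1. Fold changes of low genes are understated on this scale and depend on the constant added. With 0.01 or 1 added in place of 0.1, the log2 fold change was -1.56 or -0.35 for *Col2a1* and -0.96 or -0.21 for *Col5a3*. Depth was inferred from FPKM steps of short genes, of which 90.8 to 94.7% were whole within 0.1, and fragments a gene from this depth and the exon length. Positions, exons and promoters are RefSeq on GRCm38. Of 24409 genes, 23193 were placed by symbol and 1096 by synonym. The fit was tested on simulated data. A gene that the selection would take is not reported here. Named genes are all called members, the 5 highest members, members with a peak within 20 kb, both partners, and up to 4 called genes from each other list with 1 FPKM or more on average. Other genes given were chosen after their values were seen. Members and lists were chosen with earlier results of these data known. Python 3.11.15, pandas 2.3.3 and matplotlib 3.10.9 drew the plots.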

Additional observations from a re-analysis of the deposited data

How the results depend on the processing

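Directions of the 9 called genes did not reverse under 16 alternatives (15 for *Col2a1* and *Col5a3*), and *Col9a2*, *Lamb1* and *Col2a1* kept their call in each that was run for them. The count of called collagens and laminins, 9 in the main setting, was 5 with the replicate block and 3 with a lower limit of 1 on the size of the log2 fold change, and the count of collagens, 4 in the main setting, was 2 with either of these, with a mean of at least 1 FPKM and with an adjusted p under 0.01. The count of laminins, 5 in the main setting, was 3 with the replicate block. The size limit left 1 laminin and 3 of 20 genes of the other matrix lists. Genes with a peak numbered 0 when the peak had to overlap the gene and 2 within 50 kb. When single libraries were left out, the count ranged from 5 to 9, that of collagens from 2 to 4, that of laminins from 3 to 5 and that of the matrix lists from 15 to 22, lowest for collagens and laminins without KO replicate 2.

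The labels do not say whether WT and KO libraries with the same number share more than that number. The correlations of their deviations were -0.068 and -0.036. With 2 KO libraries the KO deviations mirror each other, so these values can neither show nor exclude a pairing. The replicate block leaves WT replicate 3, which has no KO library of its number, without weight. With the block 3012 genes were called, 2931 of them among the 6002 of the main setting, and *Col5a3*, *Col18a1*, *Lama5* and *Lamb2* were not. Without WT replicate 3 and with no block 4257 were called, and of these 4 genes *Col5a3* alone was not (limma, adjusted p = 0.073). Without a filter *Col6a4* was called lower. With quantile normalization *Col20a1* was called higher and *Col5a3* was not called (limma, adjusted p = 0.098). Without the variance trend *Col27a1* and *Col5a1* were called lower, and without WT replicate 2 *Col13a1* was. Over all genes an adjusted p under 0.01 left 3291 calls, the size limit 1172 and leaving out single libraries 4146 to 4831. At this depth *Col9a3* rests on a mean of 23.4 fragments a library, and changes in low collagens that lie within their intervals were not detectable.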
